A study of Rattus norvegicus with 30 samples.

Results

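Cultured rat hepatocytes exposed to 3000 µM phenobarbital for 24 h were compared with hepatocytes given the vehicle for the same time. The comparison used 10 of the 30 arrays of the study: 5 wells dosed with 3000 µM phenobarbital and 5 wells dosed with water, all taken at 24 h. The arrays were chosen by the dose and time in their titles, and every probe set other than the manufacturer's controls was eligible. All groups held frozen hepatocytes of male Sprague Dawley rats from a commercial supplier, thawed onto collagen-coated wells, overlaid with Matrigel and dosed on day 3 of culture. The vehicle wells are labelled water, and their agent field names culture media. A further 5 wells with 300 µM phenobarbital at 24 h, and 5 vehicle and 5 3000 µM wells at 48 h, served as comparators.

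Each group holds 5 wells described as separate cultures, but no donor animal is named for any well. The p-values therefore measure the spread between these wells, which may be technical.

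Phenobarbital is a sedative barbiturate and the classic inducer of hepatic drug metabolism. It acts mainly through the constitutive androstane receptor CAR (Nr1i3), which moves to the nucleus and switches on cytochrome P450 genes of the CYP2B family, and part of its targets are shared with the pregnane X receptor PXR (Nr1i2). Liver cells also hold a separate set of stress circuits. In the integrated stress response, kinases phosphorylate the initiation factor eIF2α and the transcription factor ATF4 is translated, and ATF4 with its partners drives genes of amino acid supply, tRNA charging and the factors CHOP (Ddit3) and ATF3. The unfolded protein response of the endoplasmic reticulum acts through ATF6, IRE1 with XBP1, and PERK.

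The values are array signals on a linear scale, 1 per probe set and array, and differences are given as log2 of 3000 µM minus vehicle with the standard error (SE) of the fit, so that 1 stands for a doubling. A probe set was tested if its mean log2 signal reached 8.58 (a signal of 384) in at least 1 of the 6 groups of the study, which left 16596 of 31042. Rose and fell are used for an adjusted p under 0.05 in the limma fit across all tested probe sets. By this rule 5319 probe sets (32%) changed at 24 h, 2868 upwards and 2451 downwards. The changes were mostly small: 3777 were under 1.5-fold and 439 reached 2-fold, of which 155 rose and 284 fell. With the array medians set equal the split was 3406 upwards against 1678 downwards, so the balance of directions depends on the scaling. It depends on the filter too. In 1570 tested probe sets the vehicle mean was below 8.58, and of these 175 rose and 34 fell, with a median difference of 0.16. They entered the test through other groups, which favours rises at 3000 µM. Probe sets below that level at 3000 µM entered through other groups too, which favours falls. With both group means at or above the level, 2738 probe sets rose and 2234 fell. One probe set stood for each gene in the gene groups below, the one with the highest mean signal. Of 9831 genes tested, 20.1% rose and 15.9% fell, with a median difference of 0.02. These shares are the background for group counts of the main fit. They do not hold for counts given under another scaling or with an array left out.

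**Figure D1:**
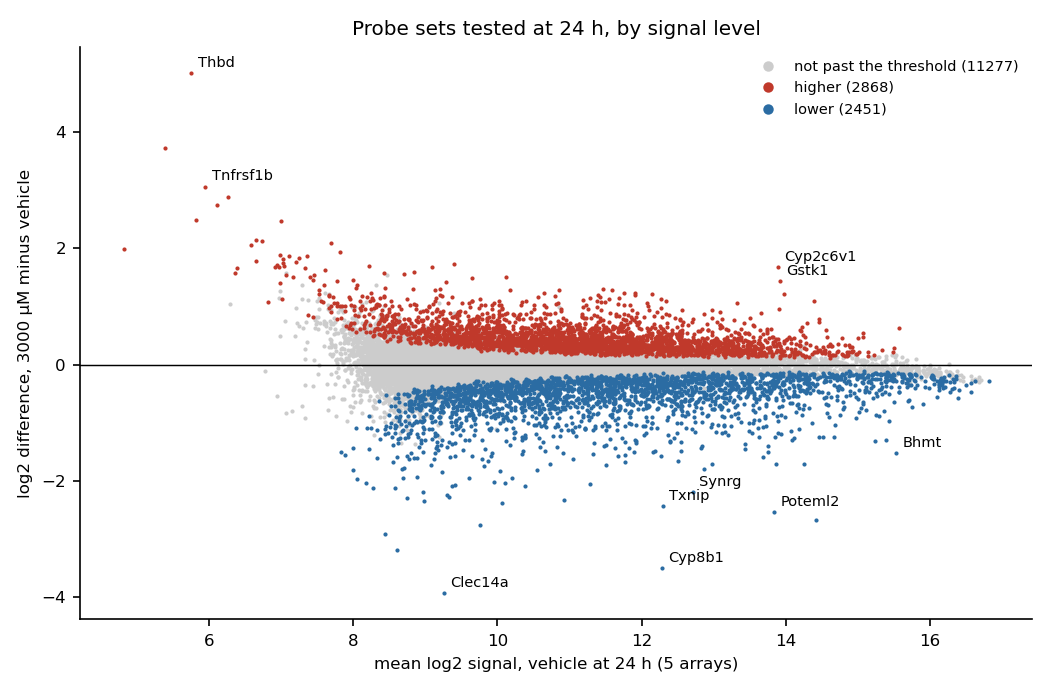
Each point is 1 of the 16596 tested probe sets, with the mean log2 signal in the 5 vehicle wells on the x axis and the log2 difference (3000 µM minus vehicle, 24 h) on the y axis. Large falls such as Cyp8b1 at -3.50 were spread over the signal range; differences of probe sets below the filter level in 1 group, such as Thbd, have no firm size.

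The hepatocyte markers albumin, Ttr, Apoa1, Apob, Ahsg, Serpina1, Tat, Tdo2 and Cps1 had mean log2 signals of 14.1 to 16.6 in the vehicle wells and 14.3 to 16.4 at 3000 µM. Of these 9 markers 6 fell (Ttr, Apoa1, Apob, Ahsg, Tdo2 and Cps1), from -0.27 for Ahsg to -0.47 for Apob, and Tat was at 0.21 without passing. Correlations between arrays were 0.967 to 0.978 within vehicle, 0.977 to 0.981 within 3000 µM and 0.950 to 0.962 between the groups. Vehicle array 1 stood apart in its hybridization controls, with a mean log2 signal of 13.9 against 12.8 to 13.1 on the other 9 arrays of the comparison; 1 array at 3000 µM and 48 h read 14.3. The 406 probe sets with a vehicle log2 signal of 15 or more had a median difference of -0.16, which was -0.12 without that array and -0.02 after quantile normalization. Small falls of very abundant transcripts are read against that shift. Of the markers of other cell types, the summed signal of 24 stellate cell and fibroblast genes was 16624 to 26876 in vehicle and 10868 to 13177 at 3000 µM, and that of 16 cholangiocyte genes was 49786 to 55072 and 34094 to 39474. The sums of 20 macrophage genes (31020 to 33048 and 29218 to 31686), 20 endothelial genes (4988 to 6452 and 4438 to 5397) and 20 lymphocyte genes (5532 to 9238 and 5177 to 6070) overlapped between the groups. Below the filter level were 13, 7, 6, 14 and 13 of these genes in the same order. In the stellate sum, Lox, an enzyme that cross-links collagen, accounted for 8222 to 18636 in vehicle and 4338 to 5287 at 3000 µM. Tm4sf4 accounted for 33180 to 37985 and 18183 to 22572 of the cholangiocyte sum. In bulk RNA, fewer cells of a type and less RNA per cell cannot be told apart, and the part of these cells in the results was not tested.

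The classic phenobarbital targets did not move alike at 3000 µM. Cyp2b1 and Cyp2b2, the barbiturate-inducible P450s, are read by a common probe set, which gave 1463, 1633, 1580, 1431 and 1483 in the vehicle wells and 5166, 2935, 2890, 3256 and 3251 at 3000 µM. Every treated well lay above every vehicle well, and the well with 5166 stood above the other treated wells. The log2 difference was 1.17 ± 0.23 (adjusted p = 0.000166). At 300 µM the same probe set was 4.61 ± 0.23 above the same vehicle wells, and the direct test of 3000 minus 300 µM gave -3.43 ± 0.23 (adjusted p = 3.97e-12). Cyp2c6v1, another CAR-responsive P450, read 14702 to 15858 in vehicle and 45824 to 50848 at 3000 µM. Its difference of 1.68 ± 0.06 (adjusted p = 7.3e-21) had no overlap between the groups, and the level was 0.36 below that at 300 µM (adjusted p = 7.82e-06).

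Of 24 measured phase I enzymes of the CAR and PXR program, 5 rose and 8 fell (median -0.12), beside 20.1% and 15.9% of all genes. After quantile normalization 9 rose and 8 fell, and 7 rose without vehicle array 1, so the balance of the group depends on the scaling. Cyp3a2 and Cyp3a18, steroid hydroxylases of the male rat liver, rose by 0.64 ± 0.11 and 0.40 ± 0.09. Cyp3a23-3a1, the PXR target, was at 71613 to 98226 in vehicle and 76637 to 85926 at 3000 µM, with a difference of 0.02 ± 0.11 (adjusted p = 0.935); after quantile normalization it was 0.25 (adjusted p = 4.47e-05). Cyp2d3, Cyp2a1 and the ethanol-inducible Cyp2e1 fell by 1.01 ± 0.11, 0.80 ± 0.13 and 0.78 ± 0.14, and all 5 treated wells lay below all vehicle wells for each. Against 300 µM, 1 of the 24 was higher at 3000 µM and 10 were lower. Of all 16596 probe sets 2310 were higher and 2026 lower, 26.1% together. That share is over probe sets, and a share over genes was not taken for the doses.

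Receptors that carry this program fell. Nr1i3 (CAR) read 2660, 2932, 3202, 3051 and 2770 in vehicle and 1178, 1013, 1099, 1241 and 1054 at 3000 µM. The groups were far apart and both were tight, and the fall was 1.39 ± 0.17 on the log2 scale (adjusted p = 1.25e-07). At 300 µM its difference from vehicle was -0.08 ± 0.17, and 3000 µM was 1.31 below 300 µM (adjusted p = 5.75e-07). Nr1i2 (PXR) fell by 0.38 ± 0.08. Nr1h4, the bile acid receptor FXR, fell by 0.90 ± 0.10, and Nr5a2, a nuclear receptor that supports bile acid synthesis genes, fell by 0.53 ± 0.13. Of 25 measured nuclear receptors and cofactors 2 rose, 8 fell and 15 did not pass, with 4 falls once array medians were set equal. The corepressor Ncor1 was among the rises at 0.28 ± 0.08.

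Conjugating enzymes and transporters moved both ways, with 9 rises and 15 falls among 39 phase II enzymes and 7 of each among 23 transporters. In these groups 61.5% and 60.9% changed, where 20.1% of all genes rose and 15.9% fell. Sult1c2, a cytosolic sulfotransferase, read 485 to 620 in vehicle and 1660 to 1843 at 3000 µM, a rise of 1.69 ± 0.08 (adjusted p = 2.03e-16). At 300 µM it was at 0.01 ± 0.08 from vehicle. Gstk1, the glutathione transferase of mitochondria and peroxisomes, read 14379 to 17233 and 39717 to 44024 (1.44 ± 0.07). Gsta4 and the estrogen sulfotransferase Sult1e1 rose by 0.60 ± 0.06 and 0.65 ± 0.11, while the acetyltransferase Nat1 and the glutathione transferase Gstt2 fell by 0.76 ± 0.08 and 0.64 ± 0.12.

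Both efflux pumps and uptake carriers held rises and falls. Abcb1a, the drug efflux pump P-glycoprotein, rose by 1.28 ± 0.11 (1622 to 2215 in vehicle, 3960 to 5772 at 3000 µM), and Abcc2, the canalicular conjugate pump, by 0.55 ± 0.07. Abcc6, an efflux transporter too, fell by 0.48 ± 0.13. Slco1a4, an organic anion uptake carrier known to respond to PXR, rose by 0.97 ± 0.13. Slc10a1, the sodium-dependent bile acid carrier, read 7430, 7522, 6261, 7390 and 7953 in vehicle and 2982, 2169, 2466, 3505 and 2800 at 3000 µM, with no overlap and a fall of 1.41 ± 0.12 (adjusted p = 5.85e-11). Slco1b2 and Slc22a7 fell by 0.91 ± 0.12 and 0.54 ± 0.08.

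Targets of the dioxin receptor AhR gave 2 falls and no rise among 6 measured, with Cyp1a2 at -0.48 ± 0.12. Without vehicle array 1 or after quantile normalization 1 member rose, and with array medians set equal 1 rose and 1 fell. Antioxidant genes controlled by Nrf2 gave 9 rises and 8 falls among 32, with Maff at 0.69 ± 0.10 and heme oxygenase Hmox1 at 0.35 ± 0.10 on the higher side and the reductases Akr1b8 and Cbr1 at -0.72 ± 0.14 and -0.41 ± 0.06 on the lower side; with array medians set equal the falls were 3, and after quantile normalization 5. Of 32 heme and iron genes 4 rose and 9 fell (4 with equal array medians), and Fech, the enzyme that inserts iron into heme, fell by 0.45 ± 0.09. Alas1, the rate-limiting enzyme of heme synthesis, was chosen for the text after its values were seen. It fell by 0.32 ± 0.11 (adjusted p = 0.021), a call that was lost without treated array 2 (adjusted p = 0.0501), treated array 5 (0.0760) or vehicle array 3 (0.0979). The call was also lost with array medians set equal (0.118). The wells overlapped, at 8234 to 12851 in vehicle and 6818 to 9297 at 3000 µM.

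Bile acid synthesis genes fell, Cyp8b1 most of the measured members. Cyp8b1, the sterol 12-hydroxylase that sets the share of cholic acid, read 4672, 4704, 6012, 4180 and 5477 in vehicle and 522, 518, 366, 372 and 437 at 3000 µM. No treated well came near a vehicle well, and the fall was 3.50 ± 0.19 on the log2 scale, 11.3-fold (adjusted p = 8.22e-15). Cyp7a1, the rate-limiting enzyme of the classic pathway, read 3071, 2940, 4503, 2565 and 2408 in vehicle and 1745, 1276, 1040, 1294 and 999 at 3000 µM, a fall of 1.28 ± 0.25 (adjusted p = 0.000138). Of 16 measured genes of the pathway 11 fell and none rose (median -0.36; 11 falls and 1 rise after quantile normalization), against 15.9% of all genes lower. Other falls were the peroxisomal transporter Abcd3 (0.73 ± 0.06), the conjugating enzyme Baat (0.66 ± 0.11) and the acyl-CoA synthetase Slc27a2 (0.62 ± 0.05).

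Cholesterol synthesis went the other way. Of 27 measured genes of the cholesterol list 16 rose and 2 fell (median 0.31), against 20.1% of all genes higher. The list holds synthesis enzymes, SREBP2 targets and the exporter Abcg1, which does not belong to synthesis. Msmo1, a sterol C4 demethylase, read 17009, 15901, 18131, 14464 and 15447 in vehicle and 37638, 33549, 38752, 41538 and 36246 at 3000 µM (1.21 ± 0.08, adjusted p = 2.63e-13). Cyp51, the lanosterol demethylase, rose by 1.07 ± 0.08, Mvd by 0.98 ± 0.11, Idi1 by 0.95 ± 0.07 and Acat2 by 0.94 ± 0.09. The members that fell were Dhcr7, the last enzyme of the pathway, at -0.24 ± 0.08 (adjusted p = 0.0168), and the cholesterol exporter Abcg1 at -0.52 ± 0.17 (adjusted p = 0.0179). Dhcr7 lost its call without vehicle array 3 (adjusted p = 0.0769), and Abcg1 without vehicle array 1 (0.0663) or 3 (0.0579), so that 1 of the 2 falls was left without vehicle array 1 or with array medians set equal.

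Many genes that make or burn fat fell. Of 48 measured PPARα targets and fatty acid oxidation enzymes 36 fell and 3 rose (median -0.56), the lowest median of the groups. Txnip, a thioredoxin-binding protein that restrains glucose uptake, read 4557 to 5186 in vehicle and 805 to 1232 at 3000 µM (-2.44 ± 0.15, adjusted p = 2.68e-14). Cpt1a, which admits fatty acids to mitochondria, read 2874, 2436, 3462, 1966 and 2365 and then 859, 907, 998, 854 and 817, a fall of 1.54 ± 0.13 with well-separated groups. Bdh1 of ketone body synthesis fell by 1.52 ± 0.15, the fatty acid hydroxylase Cyp4a1 by 1.48 ± 0.07 and peroxisomal Ehhadh by 1.25 ± 0.16. Among 33 lipogenesis genes and SREBP1 targets 17 fell and 4 rose (median -0.33), with 2 rises after quantile normalization. The phosphatidate phosphatase Lpin1 fell by 1.59 ± 0.09, Thrsp by 1.30 ± 0.17, acetyl-CoA carboxylase Acaca by 1.00 ± 0.08 and the fatty acid binding protein Fabp1 by 0.84 ± 0.09. Dgat2, which makes triglyceride, rose by 0.41 ± 0.05. The lipid droplet coat protein Plin5 read 271 to 555 in vehicle and 42 to 234 at 3000 µM, all under the filter level of 384 in the latter.

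Glucose and glycogen genes gave 23 falls and 2 rises among 40 measured (median -0.35), and 19 and 3 with array medians set equal. Glycogen synthase Gys2 read 5665, 4282, 5890, 6647 and 7052 in vehicle and 2009, 1085, 1971, 2407 and 2009 at 3000 µM (-1.67 ± 0.17). Pyruvate kinase Pklr, pyruvate carboxylase Pc and the glucose-6-phosphate transporter Slc37a4 fell by 1.33 ± 0.12, 1.30 ± 0.12 and 1.25 ± 0.09, so enzymes of glycolysis and of gluconeogenesis were among the falls. Pck2, the mitochondrial phosphoenolpyruvate carboxykinase and a known ATF4 target, rose by 0.81 ± 0.09.

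Amino acid breakdown and the urea cycle gave 38 falls and 6 rises among 67 (median -0.28), and 30 and 8 with array medians set equal. Bhmt, which remethylates homocysteine with betaine, read 49542, 49364, 49841, 45016 and 42598 in vehicle and 18750, 13676, 15376, 17907 and 16672 at 3000 µM (-1.53 ± 0.13, adjusted p = 1.84e-10). Sardh, Ftcd, the glycine methyltransferase Gnmt and the glyoxylate transaminase Agxt fell by 1.31 ± 0.07, 1.24 ± 0.12, 1.20 ± 0.12 and 1.17 ± 0.11. On the higher side were Acmsd of tryptophan breakdown (1.19 ± 0.08) and Aass of lysine breakdown (1.08 ± 0.12). Aass was at 1.08 ± 0.12 at 300 µM too, and the difference between the doses was 0.01 ± 0.12 (adjusted p = 0.977).

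Central regulators of the integrated stress response rose. Ddit3, which encodes CHOP, read 2873, 2513, 2680, 2947 and 3095 in vehicle and 6623, 6783, 6473, 7250 and 7438 at 3000 µM. Every treated well was far above the highest vehicle well, and the rise was 1.29 ± 0.09 (adjusted p = 6.5e-13). Atf3 read 2375, 2533, 2399, 2017 and 2395 and then 4979, 4850, 5298, 5222 and 4838 (1.11 ± 0.10). Atf4 mRNA, whose product is controlled mainly by translation, rose by 0.34 ± 0.04. Gdf15, a secreted stress cytokine, rose by 1.30 ± 0.16, the pseudokinase Trib3 by 0.93 ± 0.10 and Gadd45b by 0.89 ± 0.10. In all 13 of 31 regulators rose and 5 fell (2 with equal array medians). The falls included Fgf21, the stress hormone of the liver (0.77 ± 0.09), and the cell cycle inhibitor Cdkn1a (0.72 ± 0.12).

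Genes of amino acid supply gave 15 rises and 3 falls among 31 (median 0.25). Psph, the last enzyme of serine synthesis, read 2756, 2737, 3088, 2950 and 2905 in vehicle and 5824, 6239, 5980, 6311 and 6082 at 3000 µM, 2.11-fold with an SE of 0.06 on the log2 scale (adjusted p = 1.53e-15). The amino acid carriers Slc7a5, Slc1a4 and Slc7a1 rose by 1.18 ± 0.17, 0.77 ± 0.13 and 0.77 ± 0.07, and the mitochondrial folate enzymes Mthfd1l and Mthfd2 by 1.14 ± 0.15 and 0.84 ± 0.14, although 1 treated well lay below 1 vehicle well for Mthfd2. Gpt2, an alanine transaminase, fell by 0.72 ± 0.09 and Shmt2, the mitochondrial serine hydroxymethyltransferase, by 0.39 ± 0.11.

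Cytosolic aminoacyl-tRNA synthetases, which charge tRNAs with amino acids, gave 13 rises and no fall among 22 (median 0.28), and 12 of the 22 were higher at 3000 than at 300 µM. The rises were modest: Lars1 0.57 ± 0.05, Sars1 0.55 ± 0.07, Eprs1 0.48 ± 0.06 and Aars1 0.40 ± 0.07. Among 11 mitochondrial synthetases 2 rose and 1 fell (median -0.01).

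ATF4 pairs with C/EBP proteins on a composite element, and the letters TGATGCAA, a core of that element, were searched on both strands of the RefSeq promoters (GRCr8, 250 bases before to 50 after the start site). They were found in 0.827% of 27457 genes with a promoter entry. Of the tested genes with an entry, 7 of 20 cytosolic synthetases held them (35%), 5 of 28 stress response regulators, 3 of 27 amino acid supply genes and none of 11 mitochondrial synthetases. A match describes letters and was not tested as a site. Genes with the letters moved in both directions: among the 5 regulators Chac1 and Ppp1r15b rose (0.74 ± 0.08 and 0.69 ± 0.07) while Fgf21 (-0.77 ± 0.09) and Herpud1 (-0.29 ± 0.07, call lost with array medians set equal) fell. The stretches below show the letters in 4 genes that rose and in 2 synthetases that did not pass. Each is 60 bases on the gene's strand, 5′ to 3′, with the match in capitals, here always the reverse complement.
Chac1 (chr3:126795938-126795997, + strand, first match base at -167): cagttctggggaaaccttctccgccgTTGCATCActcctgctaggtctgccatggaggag
Slc1a4 (chr14:98761753-98761812, - strand, -235): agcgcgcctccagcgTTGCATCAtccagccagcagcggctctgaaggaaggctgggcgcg
Aars1 (chr19:55908344-55908403, + strand, -112): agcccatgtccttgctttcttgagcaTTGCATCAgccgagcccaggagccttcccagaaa
Iars1 (chr17:15193653-15193712, - strand, -24): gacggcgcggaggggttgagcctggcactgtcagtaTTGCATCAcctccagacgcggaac
Mars1 (chr7:65023754-65023813, - strand, -17): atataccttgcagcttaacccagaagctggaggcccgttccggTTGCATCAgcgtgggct
Tars1 (chr2:62114803-62114862, - strand, -27): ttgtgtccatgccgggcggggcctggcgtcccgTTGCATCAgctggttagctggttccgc

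These 6 genes, picked for the match, did not move alike. Chac1, which degrades glutathione, read 4366, 3946, 3878, 3313 and 4514 in vehicle and 6774, 7432, 6035, 6554 and 6541 at 3000 µM (0.74 ± 0.08). Iars1 read 7042 to 8204 and 9172 to 10052 (0.36 ± 0.07). Mars1 was at 8690 to 11995 in vehicle and 8844 to 9309 at 3000 µM, with a difference of -0.04 ± 0.06 (adjusted p = 0.665), and Tars1 at 0.07 ± 0.07 (adjusted p = 0.512). So 2 of the 4 synthetases shown rose, and 2 did not pass.

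The unfolded protein response gave 18 rises and 7 falls among 45 genes (median 0.09), and 19 and 3 with array medians set equal. Sdf2l1, an ER chaperone partner, rose by 0.77 ± 0.07, the sensor Atf6 by 0.59 ± 0.10 and the co-chaperone Dnajb9 by 0.48 ± 0.05. Edem1 and Os9, which act in the degradation of misfolded glycoproteins, fell by 0.58 ± 0.07 and 0.54 ± 0.12, and Herpud1 by 0.29 ± 0.07. The Herpud1 call was lost with array medians set equal (adjusted p = 0.0644). The ER stress element is the binding site of ATF6 with NF-Y and was searched as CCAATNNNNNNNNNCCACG on both strands. It was found in 0.0765% of all promoters and in 8 of 37 tested unfolded protein response genes. The stretches of 4 of them are shown because the element marks classic genes of this response, with the match in capitals.
Hspa5 (chr3:38452953-38453012, + strand, first match base at -43): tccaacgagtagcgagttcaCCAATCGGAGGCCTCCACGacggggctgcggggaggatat
Xbp1 (chr14:84604538-84604597, + strand, -65): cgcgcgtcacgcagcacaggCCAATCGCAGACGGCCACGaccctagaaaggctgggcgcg
Dnajc3 (chr15:102432514-102432573, + strand, -133): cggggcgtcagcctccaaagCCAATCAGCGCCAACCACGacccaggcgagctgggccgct
Canx (chr10:35158048-35158107, - strand, -230): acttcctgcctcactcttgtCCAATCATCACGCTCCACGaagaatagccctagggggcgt

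The genes with the element that are named here moved little, the most in Dnajc3 and Canx. Hspa5, the ER chaperone BiP and the standard marker of the response, read 53297, 46116, 52036, 51290 and 46993 in vehicle and 52066, 55654, 54253, 56533 and 53470 at 3000 µM. The groups overlapped, and the difference was 0.12 ± 0.07 (adjusted p = 0.185; 95% interval -0.02 to 0.27). It passed after quantile normalization (0.25, adjusted p = 0.000133), when no other groups entered the fit (0.12, 0.0458) and with the 2 arrays that stood apart left out (0.15, 0.0495). Xbp1, Creld2 and Calr, which hold the element too, were at 0.11 ± 0.06, -0.15 ± 0.09 and 0.08 ± 0.12 and did not pass. Dnajc3 and Canx rose by 0.22 ± 0.05 and 0.22 ± 0.04. Hsp90b1, the ER form of HSP90, was at -0.18 ± 0.06 (adjusted p = 0.0299). Its call was ended by 5 single-array omissions (treated arrays 1 and 3, vehicle arrays 1, 2 and 3, with adjusted p up to 0.0747). The call was also lost after quantile normalization, with array medians set equal and with eBayes without trend and robust settings. Over all alternatives its adjusted p reached 0.27.

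Heat shock proteins gave 22 rises and 5 falls among 37 (median 0.18), led by the HSP110 chaperone Hsph1 (0.68 ± 0.08). The inducible Hspa1a fell by 0.57 ± 0.12, as did the small heat shock protein Cryab (0.87 ± 0.08) and the glucocorticoid-responsive Fkbp5 (0.62 ± 0.08). Constitutive proteasome subunits gave 19 rises and 3 falls among 39 (median 0.14; 1 fall after quantile normalization or with array medians set equal), with Psmd11 and Psmd2 of the regulatory particle at 0.48 ± 0.05 and 0.43 ± 0.07.

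p53 and DNA damage genes split, with 11 rises and 8 falls among 27. Mdm2, the ligase that targets p53, read 3324 to 3880 in vehicle and 7065 to 7902 at 3000 µM (1.02 ± 0.06, adjusted p = 2.84e-14). Plk2, Sesn2 and Tp53inp1 rose by 0.81 ± 0.06, 0.79 ± 0.10 and 0.73 ± 0.12. Cdkn1a, the best-known p53 target, was among the falls given above, and Sesn1 fell by 1.02 ± 0.11. Sesn2 and Sesn1, related stress proteins, thus moved in opposite directions.

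Cell cycle and replication genes gave 12 rises and no fall among 38 (median 0.21), and 26 did not pass; without vehicle array 1 there were 10 rises and 1 fall. Stmn1, a tubulin-binding protein of dividing cells, read 726, 801, 779, 440 and 689 in vehicle and 2257, 2237, 2406, 2128 and 2192 at 3000 µM (1.74 ± 0.19). Myc rose by 0.65 ± 0.09. The replication helicase subunit Mcm4 read 203 to 399 in vehicle and 428 to 620 at 3000 µM, with a vehicle mean below the filter level.

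**Figure D2:**
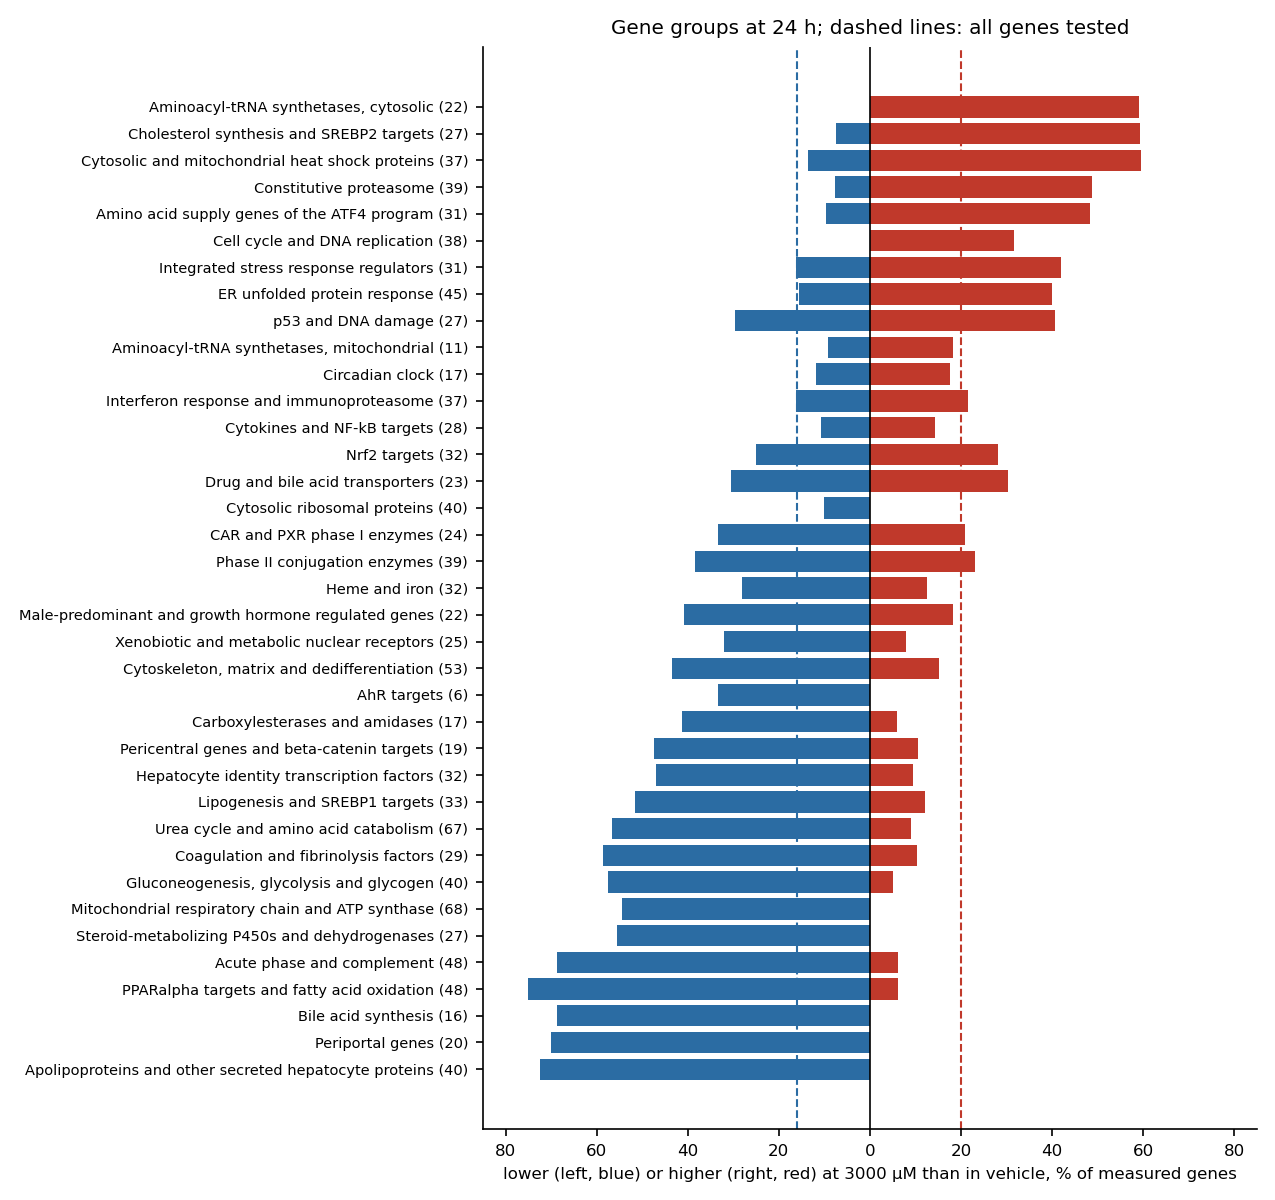
Bars give the share of measured genes of each group (number in brackets) that fell, in blue to the left, or rose, in red to the right, at 3000 µM against vehicle at 24 h, and the dashed lines mark all genes tested (15.9% lower, 20.1% higher). Fatty acid oxidation, bile acid synthesis and secreted proteins reached far past the line on the left, and tRNA synthetases, cholesterol synthesis and heat shock proteins on the right.

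Hepatocyte identity factors gave 15 falls and 3 rises among 32 (median -0.30), and 11 and 3 with array medians set equal. Foxa1, a pioneer factor of liver enhancers, read 1015, 1363, 1132, 1376 and 1715 in vehicle and 461, 432, 504, 305 and 569 at 3000 µM (-1.55 ± 0.16, adjusted p = 4.77e-09). Id2 fell by 1.09 ± 0.08 and the transcriptional repressor Bcl6 by 1.01 ± 0.15. Id3 and Cebpd rose by 0.65 ± 0.14 and 0.62 ± 0.17. Hnf4a, the central hepatocyte factor, was at -0.17 ± 0.07 (adjusted p = 0.0426) on its brightest probe set, and its other probe sets were at 0.24 and 0.33 without passing. Omission of any 1 of 8 single arrays (treated 2 to 5, vehicle 1, 2, 4 or 5) ended the Hnf4a call, with adjusted p up to 0.12, so no direction is given for this gene.

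Genes of secreted hepatocyte proteins fell widely. Of 40 apolipoproteins and other secreted proteins 29 fell and none rose (median -0.29), with 23 falls after quantile normalization and 23 without vehicle array 1, and part of that list lies at the signal level where the median probe set shifted by -0.16. Larger falls were the growth factor Igf1, at 34615 to 41600 in vehicle and 19706 to 23111 at 3000 µM (-0.87 ± 0.08), the lipoprotein enzyme Lcat (-0.84 ± 0.06) and the lipoprotein assembly factor Mttp (-0.64 ± 0.09). The thyroxine carrier Serpina7 read 471 to 700 in vehicle and 150 to 271 at 3000 µM, where it was below the filter level. Albumin was at -0.25 ± 0.15 and did not pass (adjusted p = 0.216). Of 48 acute phase and complement genes 33 fell and 3 rose (median -0.35), with 27 falls when array medians were set equal. Complement C5 fell by 1.08 ± 0.13, the protease inhibitor Serpina3n by 0.96 ± 0.08 and the interleukin 6 receptor Il6r by 0.95 ± 0.11. Il1r1, the interleukin 1 receptor, rose by 0.94 ± 0.07. C1qb, made by macrophages, read 286 to 693 in vehicle and 36 to 285 at 3000 µM, while the summed macrophage markers overlapped between the groups and Cd68 rose by 0.54 ± 0.18 (adjusted p = 0.0179; 0.0632 without treated array 3).

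Coagulation and fibrinolysis factors gave 17 falls and 3 rises among 29 (median -0.26), and 13 and 4 with array medians set equal. Fga, a fibrinogen chain, read 41592, 44892, 37172, 43320 and 42913 in vehicle and 23671, 23403, 23148, 24754 and 25133 at 3000 µM (-0.80 ± 0.08), and a dimmer probe set of the gene fell by 1.71. Serpinf2 and plasminogen Plg fell by 0.86 ± 0.09 and 0.83 ± 0.10. Thbd, which encodes the anticoagulant receptor thrombomodulin, read 111, 12, 77, 111 and 41 in vehicle, all under the filter level of 384, and 1221, 1789, 1764, 1764 and 2453 at 3000 µM. It passed the filter through the 3000 µM groups alone, so no size or test is given for it. The group counts include such genes, and their rises in these counts are favoured by the filter. Falls of genes below the level at 3000 µM are favoured in the same way. Procr, the endothelial protein C receptor of the same pathway, rose by 0.39 ± 0.09. Of 20 endothelial markers 14 were below the filter level and none of the 6 tested rose. Clec14a, an endothelial C-type lectin, read 526 to 691 in vehicle and 4 to 91 at 3000 µM, where it was far below the filter level.

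Interferon genes gave 8 rises and 6 falls among 37, or 37.8%, beside 36% of all genes (8 and 8 after quantile normalization). The count is near that share, so no group result is drawn from it. Cmpk2 and Rsad2, antiviral enzymes with neighbouring genes, rose by 1.59 ± 0.19 and 1.49 ± 0.19, and the immunoproteasome subunits Psmb8 and Psmb9 and the peptide transporter Tap1 rose by 0.78 ± 0.08, 0.77 ± 0.08 and 0.61 ± 0.13. Other interferon-induced genes fell in the same wells: Isg15 read 1324 to 1815 in vehicle and 574 to 1043 at 3000 µM (-1.07 ± 0.27), and Mx2 was at -0.76 ± 0.25 (adjusted p = 0.0181; 0.0586 without vehicle array 4). Tnfrsf1b, the second TNF receptor, read 31 to 137 in vehicle and 422 to 568 at 3000 µM; its vehicle signals, like those of Thbd, were under the filter level, and no size is given.

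Steroid-metabolizing enzymes gave 15 falls and no rise among 27 (median -0.29; 14 falls and 1 rise after quantile normalization, 9 falls with array medians set equal). The lipid droplet enzyme Hsd17b13 was at -1.40 ± 0.15. Cyp17a1, the steroid 17-hydroxylase, read 840 to 1625 in vehicle and 176 to 254 at 3000 µM, below the filter level. Carboxylesterases and other amidases and hydrolases gave 7 falls and 1 rise among 17, with the aminoacylase Acy3 at -1.50 ± 0.17, soluble epoxide hydrolase Ephx2 at -0.99 ± 0.07 and Ces1d at -0.96 ± 0.10. Genes of the periportal zone gave 14 falls and no rise among 20, with 12 falls after quantile normalization and 10 with array medians set equal. Those of the pericentral zone gave 9 falls and 2 rises among 19 (1 rise without vehicle array 1 or after quantile normalization), and 6 falls with array medians set equal. Falls were thus present in both zones. Among 17 clock genes 3 rose, 2 fell and 12 did not pass, where 36% of all genes changed. Cry1 and Clock rose by 0.52 ± 0.10 and 0.37 ± 0.06 while Npas2 and Usp2 fell by 1.16 ± 0.14 and 1.06 ± 0.15.

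Cytoskeleton, matrix and dedifferentiation genes, which usually climb as plated hepatocytes flatten, gave 23 falls and 8 rises among 53 (median -0.22). With array medians set equal 17 fell and 9 rose. Acta1, an actin of muscle, read 1290, 2312, 1694, 2479 and 2211 in vehicle and 416, 472, 327, 413 and 315 at 3000 µM (-2.34 ± 0.26). The intermediate filament Vim read 12285 to 12794 and 5148 to 6990 (-1.08 ± 0.08), and the matricellular protein Ccn2 fell by 1.00 ± 0.09. Anxa1 read 474 to 886 in vehicle and 162 to 335 at 3000 µM, below the filter level. Ccn2 was at -0.86 ± 0.09 already at 300 µM, and the doses did not pass the test of their difference (-0.14 ± 0.09, adjusted p = 0.304). Tubb5, Timp3 and Cnn3 rose by 0.64 ± 0.07, 0.62 ± 0.11 and 0.55 ± 0.05. Stellate cell and fibroblast markers fell in 4 of 11 tested, Lox among them, and their summed signal is given above; its part in the matrix group was not tested.

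Calls for the abundant respiratory chain and ribosomal transcripts depended on the scaling. Of 68 respiratory chain and ATP synthase genes 37 fell and none rose (median -0.16), with 21 falls after quantile normalization and 4 with array medians set equal. Of 40 ribosomal protein genes 4 fell and none rose, 1 fell and 1 rose without vehicle array 1, none passed with array medians set equal, and after quantile normalization 12 rose and none fell. No direction is drawn for ribosomal proteins.

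Among the largest changes of single genes regardless of group, all 5 treated wells lay on 1 side of all 5 vehicle wells by rule, as they did for 24.5% of probe sets. Synrg, a vesicle trafficking protein, read 7150, 6271, 7236, 6573 and 6274 in vehicle and 1438, 1454, 1406, 1378 and 1601 at 3000 µM (-2.20 ± 0.09, adjusted p = 4.48e-19). Poteml2 read 12889 to 15942 and 2282 to 3337 (-2.54 ± 0.23). The cell cycle arrest gene Rprm read 682 to 1134 and 84 to 168, and Abcc9, a regulatory subunit of potassium channels, 523 to 749 and 59 to 218, both below the filter level at 3000 µM. On the higher side Rgs19, a G protein regulator, read 81 to 153 in vehicle and 366 to 589 at 3000 µM, and the adaptor Shc4 257 to 354 and 872 to 1242. The WNT inhibitor Wif1 read 56 to 226 and 322 to 469, and the transcription factor Nfe2 113 to 182 and 331 to 514. All 4 had vehicle signals under the filter level of 384, and no size is given for them.

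**Figure D3:**
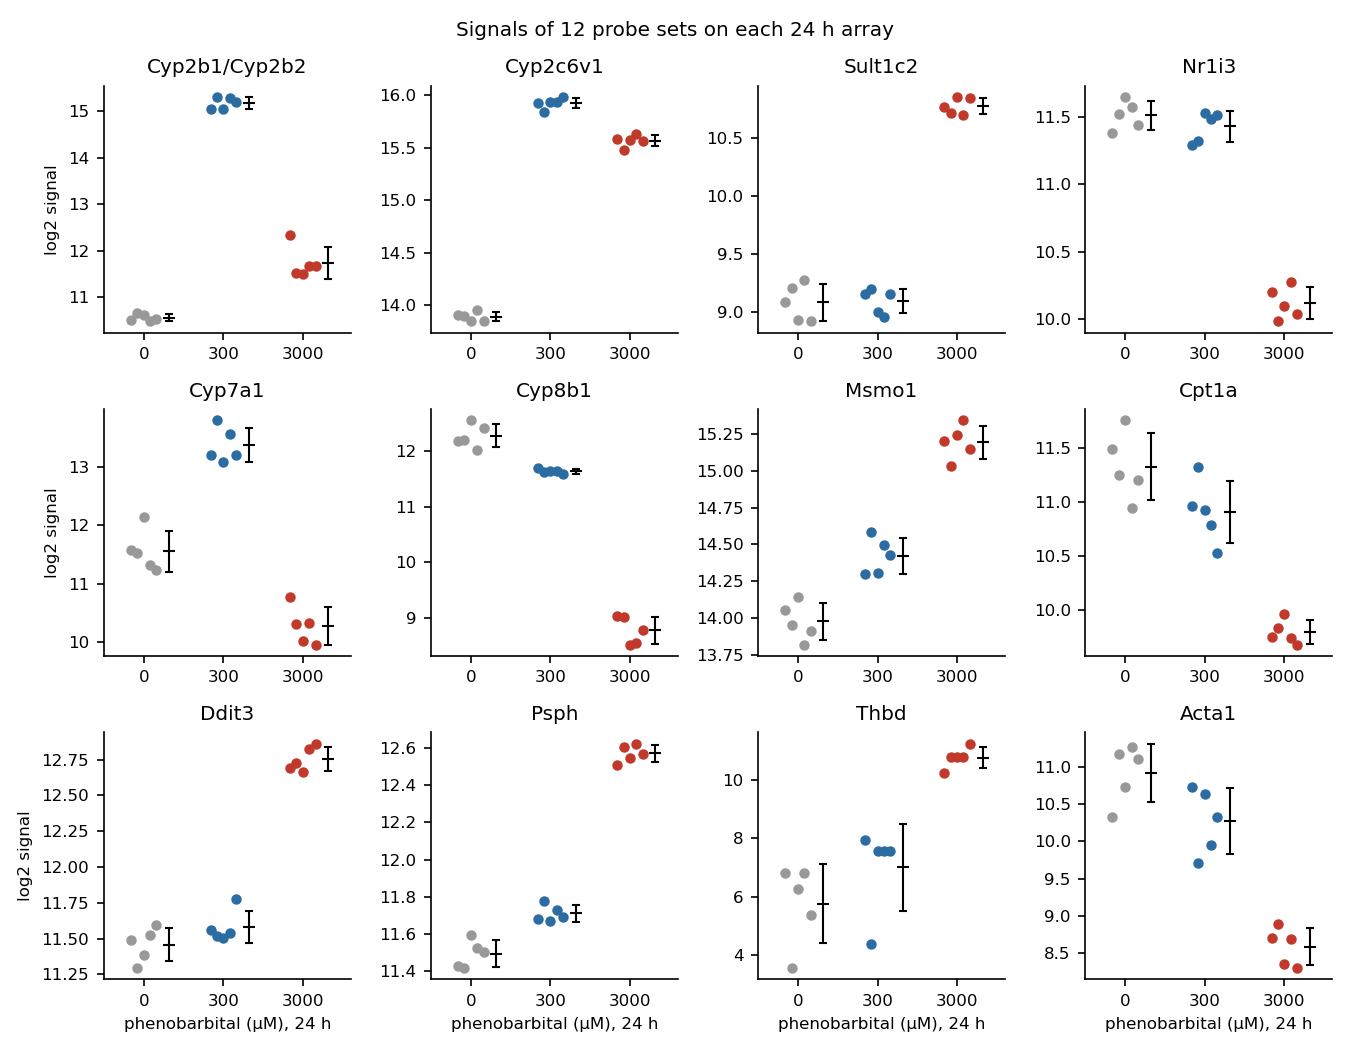
Each point is the log2 signal of 1 of 5 wells at 0, 300 or 3000 µM phenobarbital (24 h), and the black bar beside each group is the mean ± SD. Cyp2b1/Cyp2b2, Cyp2c6v1 and Cyp7a1 were highest at 300 µM, while Sult1c2, Ddit3, Psph and Nr1i3 stood apart at 3000 µM.

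The 2 doses at 24 h were compared by the test of their difference, since both use the same vehicle wells. In that test 4336 probe sets (26.1%) differed, whereas 2.99% differed between 300 µM and vehicle. Several liver genes had values on opposite sides of vehicle. Cyp7a1 was at 1.81 ± 0.25 at 300 µM and -1.28 ± 0.25 at 3000 µM, a difference of -3.09 ± 0.25 (adjusted p = 8.76e-11). Acox2, a peroxisomal oxidase of bile acid side chains that was named after its values were seen, was at 0.73 ± 0.09 and -0.50 ± 0.09 (difference -1.24, adjusted p = 2.62e-12). Cyp2a1 was at 0.49 and -0.80 (difference -1.29, adjusted p = 1.03e-08) and Alas1 at 0.76 and -0.32 (difference -1.08, adjusted p = 3.23e-09). The Alas1 fall from vehicle at 3000 µM is the unstable call given above. Abcb1a and Gstk1 were higher at 3000 µM than at 300 µM, by 0.58 and 1.07, as were Msmo1 by 0.77 and Ddit3 by 1.17. For Cyp3a2 the doses did not pass the test (-0.04 ± 0.11, adjusted p = 0.841). Of 48 fatty acid oxidation genes 31 were lower at 3000 than at 300 µM and 2 higher, and of the 27 genes of the cholesterol list 13 were higher and 2 lower.

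**Figure D4:**
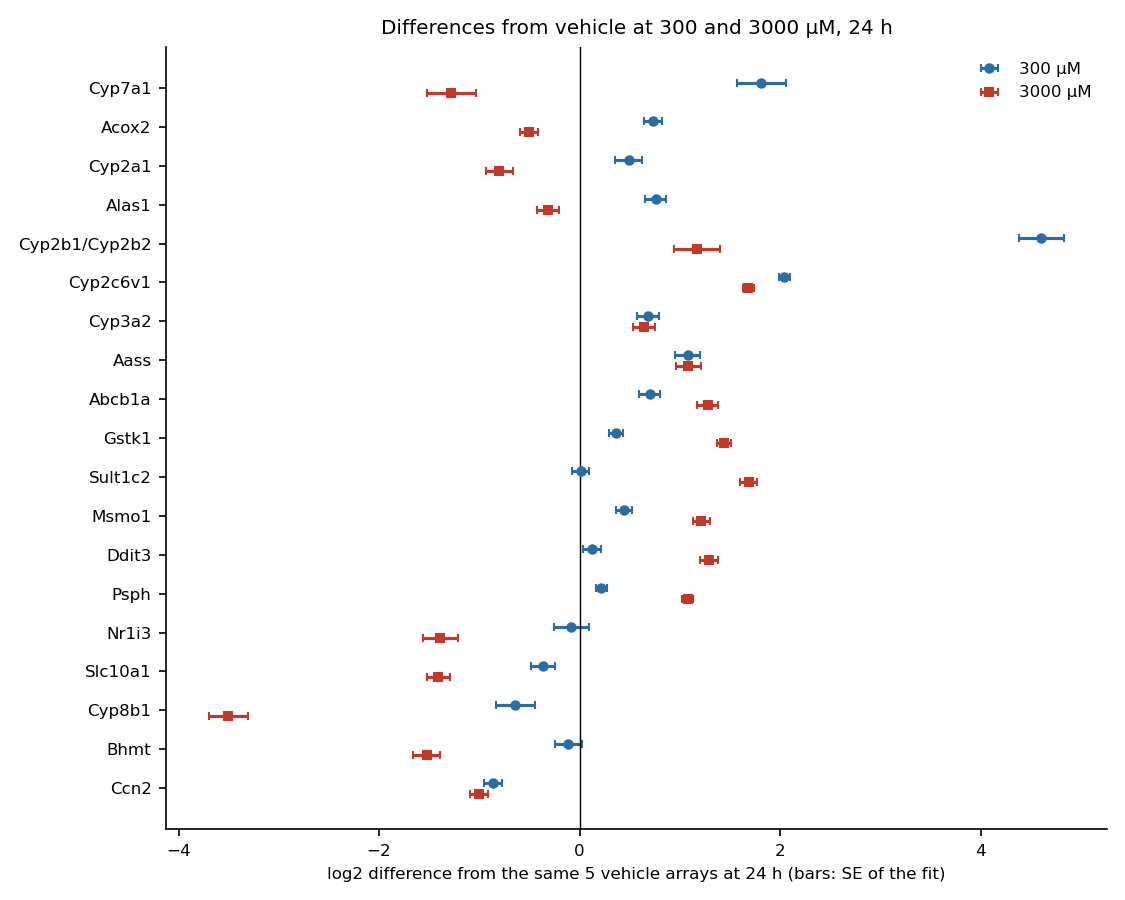
Points give log2 differences from the shared 5 vehicle wells at 24 h for 300 µM (circles) and 3000 µM (squares), with bars for the SE of the fit. Cyp7a1, Acox2, Cyp2a1 and Alas1 lay above vehicle at 300 µM and below it at 3000 µM, and Cyp2b1/Cyp2b2 was at 4.61 and 1.17. The Alas1 call at 3000 µM was lost in 4 of 20 alternatives.

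At 48 h, with vehicle wells of its own, 39.4% of probe sets differed between 3000 µM and vehicle, and the difference of the effects of 3000 µM at 48 and 24 h passed for 688 probe sets (4.15%). That count ranged from 410 to 698 when single 24 h arrays were left out and was 410 without treated array 1, 429 without treated array 4 and 437 without vehicle array 2. No 48 h array was left out alone. Of the 181 named genes 24 passed that test. Most named genes were chosen for their 24 h effects, which enter the difference, so this count is not independent of that choice. Cyp2c6v1 was at 1.68 and 1.72, Nr1i3 at -1.39 and -1.31 and Atf3 at 1.11 and 1.19, with no passing difference. The Cyp2b1 and Cyp2b2 probe set was at 1.17 at 24 h and 0.12 at 48 h, a difference of -1.05 (adjusted p = 0.0607). Of the 3000 µM wells at 48 h 1 read 5399 and the other 4 read 1315 to 1760, beside 1419 to 2316 in vehicle, so the 0.12 rests on 1 well. Ddit3 went from 1.29 to 2.12 (difference 0.83, adjusted p = 0.00029), Sdf2l1 from 0.77 to 1.35 and Abcc2 from 0.55 to 1.04. The cholesterol enzymes Idi1 and Mvd went the other way, from 0.95 to 0.42 and from 0.98 to 0.39, as did Psph, from 1.08 to 0.67. Il1r1 was at 0.94 at 24 h and 0.03 at 48 h (difference -0.91, adjusted p = 2.34e-06). Acute phase genes held 13 of 48 with a passing difference between the times, beside 4.15% of all probe sets (a share over genes was not taken). The 22 cytosolic and 11 mitochondrial tRNA synthetases, 16 bile acid synthesis genes and 27 p53 genes held none. At a share of 4.15% these groups are too small for that to set them apart.

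**Figure D5:**
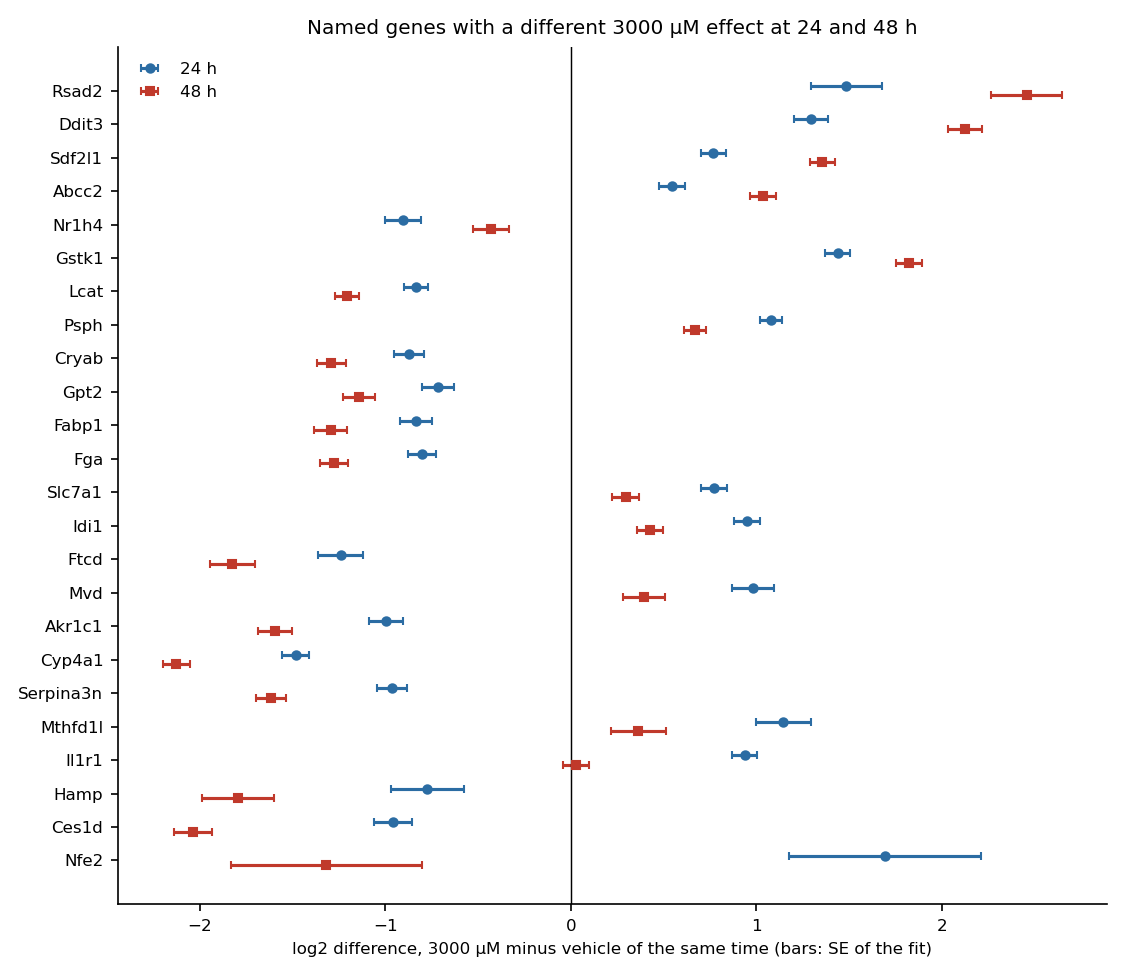
Log2 differences of 3000 µM from the vehicle of the same time at 24 h (circles) and 48 h (squares) are shown, with bars for the SE of the fit, for the named genes whose effects differed between the times by the test. The effect was higher at 48 h for Rsad2, Ddit3 and Sdf2l1, lower for Ces1d and Serpina3n, and 0.03 at 48 h for Il1r1.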

How the data were processed

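RNA of each well was labelled and hybridized to 1 Affymetrix rat array. Per the submitters' processing notes the tool was MAS5; its version is not given in the sources used here. The values deposited by the authors are signal intensities on a linear scale, with no detection calls used here; the mean after trimming 2% at each end was 1501 on all 30 arrays, and log2 was taken here. Gene names came from the platform annotation: of 31042 probe sets other than 57 controls, 20826 carry 1 symbol, 436 several and 9780 none.

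One model with a mean for each of 6 groups was fitted to all 30 arrays with limma 3.58.1 in R 4.3.3 (lmFit, contrasts.fit, eBayes with trend and robust), and p-values were adjusted by Benjamini-Hochberg over 16596 probe sets. The filter level is the median of all values. The numbers in the titles are not described as pairing wells and deviations of same-numbered arrays correlated at -0.0057 to 0.0755. Precision is limited by 5 arrays per group. On simulated data of 16596 probe sets with known changes, the fit recovered 45 of 50 falls and 44 of 50 rises of 1 on the log2 scale, and 27 of 50 and 28 of 50 of 0.5. There were 4 false calls. Only 50 probe sets were changed per size and direction, whereas 32% were called in the measured data. The adjusted p is stricter where few probe sets change, so these rates do not give the power of this comparison.

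The 42 gene lists and this comparison were chosen with earlier results of these data known. Genes were named by rule: the 25 largest rises and falls with separate groups, up to 5 rises and 5 falls per list, and 11 anchor genes with the shared CYP2B probe set. Another 15 were chosen after their values were seen or for a promoter match, among them Slc7a1; the anchor Ppara had no tested probe set under its symbol. Alternatives covered the filter, a constant of 32, quantile and median scaling, the arrays fitted, the variance model, array weights, a number block and single arrays left out.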

Additional observations from a re-analysis of the deposited data

Results flagged for a closer look

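A single array lay far from the other 4 of its group for 25 of 362 combinations of a named gene and a 24 h group, by Dixon's test with a critical value of 0.71; chance gives about 1 in 20 such groups. Among the 3000 µM arrays, the log2 signal of 1 array was set apart as the highest for the Cyp2b1 and Cyp2b2 probe set (array 1, 12.33), Cyp3a23-3a1 (array 4, 16.39), Akr1b8 (array 2, 12.12), Dhcr7 (array 1, 13.91), Lpin1 (array 1, 12.27) and Poteml2 (array 1, 11.70). Among the 3000 µM arrays, the log2 signal of 1 array was set apart as the lowest for Gys2 (array 2, 10.08), Gadd45b (array 2, 12.23), Mthfd1l (array 1, 9.96), Gpt2 (array 4, 10.76), Id2 (array 3, 10.78), Cebpd (array 5, 10.61), Tnfrsf1b (array 5, 8.72) and Clec14a (array 3, 2.07). Among the vehicle arrays, the log2 signal of 1 array was set apart as the highest for Cyp3a23-3a1 (array 1, 16.58), Fabp1 (array 3, 14), Fkbp5 (array 3, 13.05), Alb (array 1, 17.07), Nfe2 (array 3, 7.51), Ppp1r15b (array 4, 12.31) and Mars1 (array 1, 13.55). Among the vehicle arrays, the log2 signal of 1 array was set apart as the lowest for Txnip (array 3, 12.15), Slc37a4 (array 5, 14.35), Atf3 (array 4, 10.98) and Stmn1 (array 4, 8.78). 

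For 24 of 181 named genes the 3000 µM effect differed between 48 and 24 h in limma's test of the difference (adjusted p under 0.05). Most named genes were chosen for their 24 h effects, which are part of that difference. On the log2 scale the 48 h effect was higher than the 24 h effect by 0.97 for Rsad2, 0.83 for Ddit3, 0.59 for Sdf2l1, 0.49 for Abcc2, 0.48 for Nr1h4 and 0.38 for Gstk1. The difference of 48 minus 24 h was -3.01 for Nfe2, -1.08 for Ces1d, -1.02 for Hamp, -0.91 for Il1r1, -0.78 for Mthfd1l, -0.65 for Serpina3n, -0.64 for Cyp4a1, -0.60 for Akr1c1, -0.59 for Mvd, -0.59 for Ftcd, -0.52 for Idi1, -0.48 for Slc7a1, -0.47 for Fga, -0.46 for Fabp1, -0.42 for Gpt2, -0.42 for Cryab, -0.41 for Psph and -0.37 for Lcat. The adjusted p ranged from 2.34e-06 to 0.0474. These differences between the times were not followed gene by gene through the alternatives. For Nfe2 the vehicle signals at 24 h (113 to 182) and at 48 h (67 to 130) and the 3000 µM signals at 48 h (22 to 79) were all under the filter level of 384, so its difference compares values below that level in 3 of 4 groups and has no firm size.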

How the results depend on the processing

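The count of probe sets that changed between 3000 µM and vehicle at 24 h was 5319 and stayed within 4800 to 5938 over the 20 alternatives, with 4800 to 5005 when single arrays were left out. Between the doses the count was 4336 and stayed within 3849 to 5488, with 3849 to 4060 when single arrays were left out. The count of probe sets whose 3000 µM effect differed between the times, 688, was less stable. It was 362 without the filter, 232 with array medians set equal and 319 when no other groups entered the fit. It was 410 to 698 when single 24 h arrays were left out, and no 48 h array was left out alone. With the 2 arrays that stood apart in their hybridization controls left out it was 647, of which 458 were among the 688. The cause of this spread was not tested. The numbers in the titles gave no pairing in the data; with them as a replicate block the counts were 5344, 4347 and 610. Of 173 named genes that passed, 165 kept direction and call in every alternative they entered and 8 lost the call at least once (Alas1, Hnf4a, Dhcr7, Abcg1, Herpud1, Mx2, Cd68 and Hsp90b1); no named gene reversed. The alternatives numbered 20 for most genes and 19 for the 15 genes that fell below the filter level in 1 group, Thbd, Tnfrsf1b and Clec14a among them. The 173 and 165 include genes with vehicle signals under the filter level, such as Thbd, Tnfrsf1b, Rgs19, Wif1 and Nfe2. Their calls are not counted as support, since the filter favours their rises. Nor are the calls of genes below the level at 3000 µM, such as Clec14a, Cyp17a1 and Rprm, whose falls it favours. Signals near the filter level limit the precision of the low genes.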
